A study of Homo sapiens with 4 samples.

Results

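MV4-11 cells carrying the RUNX1 hairpin labelled moderate were compared with MV4-11 cells carrying a control hairpin against luciferase, on 1 expression array each. A gene was included when its log2 signal was 4.5 or more on at least 1 of both arrays, which kept 9546 of 22357 named genes (42.7%). MV4-11 is an established human acute myeloid leukaemia line of monocytic character with a KMT2A::AFF1 fusion and an activating FLT3 duplication. The study holds 4 arrays in all, the others being of MV4-11 cells with RUNX1 hairpins labelled profound 1 and profound 2. Cells of all 4 groups were transduced with their hairpin and then kept in 3 µM doxycycline for 24 h before total RNA was taken, so the doxycycline and the transduction are shared by the control. The labels do not say whether transduced cells were pools or clones. With 1 array a side no difference has a replicate check, no test was made, and a difference between both cultures, extractions or arrays cannot be told apart from an effect of the hairpin.

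RUNX1 is a DNA-binding transcription factor that works as a heterodimer with CBFB and recognises a short core sequence, TGTGGT, in the regulatory DNA of blood cell genes. It is required for definitive blood formation and controls many genes of myeloid differentiation, among them growth factor receptors and granule proteins.

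The probe set that carries RUNX1's name is also listed for LOC100506403, and it did not pass the rule for inclusion. Its log2 signal was 4.27 in control, 4.33 in the array labelled moderate, 4.07 on profound 1 and 4.04 on profound 2. The array labelled moderate therefore stood 0.06 above control. Genes of that level spread by a robust SD (scaled median absolute deviation) of 0.24, and both profound arrays also lay within that of control. A lower RUNX1 level was not seen in the array labelled moderate, but this dim, shared probe set cannot show whether RUNX1 was reduced. CBFB, the partner of RUNX1, read 9.29 in control and 9.30 in the array labelled moderate. RUNX3 read 8.17 and 8.28, and RUNX2 read 6.23 and 6.16. The genotype, title and design name RUNX1 as the target of both profound hairpins, but the free-text descriptions of those arrays name RUNX2 for profound 1 and RUNX3 for profound 2. RUNX3 was at 7.75 on profound 1 and 7.74 on profound 2, and RUNX2 at 6.17 and 6.33. The labels' genotype is followed here. Of the corepressors that bind RUNX factors, TLE1 was at 5.86 in control and 5.56 in the array labelled moderate, and CBFA2T2 was at 5.42 and 5.69. None of the 9 RUNX factors and partners that were included differed by 1.5-fold.

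Markers of the line were present in both arrays, some at like levels and some higher in the array labelled moderate. The largest differences were those of IL3RA, at 7.13 in control and 7.59 in the array labelled moderate, and CLEC12A, at 5.94 and 6.39. FUT4, at 7.79 and 7.70, was the furthest below control. FLT3 read 9.43 in each, the master regulators SPI1 and CEBPA read 8.65 and 8.58, and 8.91 and 8.89, and the KMT2A-fusion target MEIS1 read 6.59 and 6.63. CD14 at 2.16 and 2.10 and ITGAM at 3.78 and 3.87 were dim in both. Over the 14 named myeloid markers the mean log2 signal was 7.07 in control and 7.20 in the array labelled moderate. Mean signals of the markers of other cells stayed near the median of the table (3.07 in both arrays), at 3.04 and 3.10 for B cells, 3.06 and 3.08 for T and NK cells, 3.09 and 3.08 for erythroid cells, 3.09 and 3.07 for megakaryocytes, 3.03 and 2.87 for mast cells, 2.67 and 2.70 for fibroblasts and 2.89 and 3.02 for epithelial cells. Dendritic cell markers, a list that includes FLT3, IL3RA and IRF8, averaged 4.82 and 4.78.

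Most genes read alike on both arrays. Differences, given throughout as log2 signal in the array labelled moderate minus control, had a median of 0.006 and a robust SD of 0.152. At 2-fold, 2 of 9546 genes were higher (0.021%) and 5 were lower (0.0524%). At 1.5-fold, which is a log2 difference that rounds to 0.58, 63 were higher (0.66%) and 48 were lower (0.503%). The profound 1 array differed from the same control by 1.5-fold at 726 of these genes (7.61%) and profound 2 at 186 (1.95%), against 111 (1.16%) for the array labelled moderate. By this count the array labelled moderate lay nearest to control.

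The size of a difference depended on the level. In the dimmest of 6 equal classes of mean level the robust SD was 0.24, and 35 genes were 1.5-fold higher and 28 lower. In the brightest class it was 0.106, and 1 gene was higher and 2 were lower. These were CES1, which was higher, and YEATS4 and SNHG16, which were lower. Of the 63 higher genes, 27 reached a log2 signal of 4.5 only in the array labelled moderate, and of the 48 lower genes, 26 reached it only in control. Each of these had to differ in the direction it did, so 36 higher and 22 lower genes remain among the 9104 that passed in both arrays. The genes nearest the 1.5-fold limit were HIP1 and FBXO32 at 0.59 inside it, SAMD9L and LCE3B at 0.58 just outside it, LILRB1 and SNORD1B at -0.59 inside it and OSBPL8 and LLGL2 at -0.58 just outside it.

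**Figure D1:**
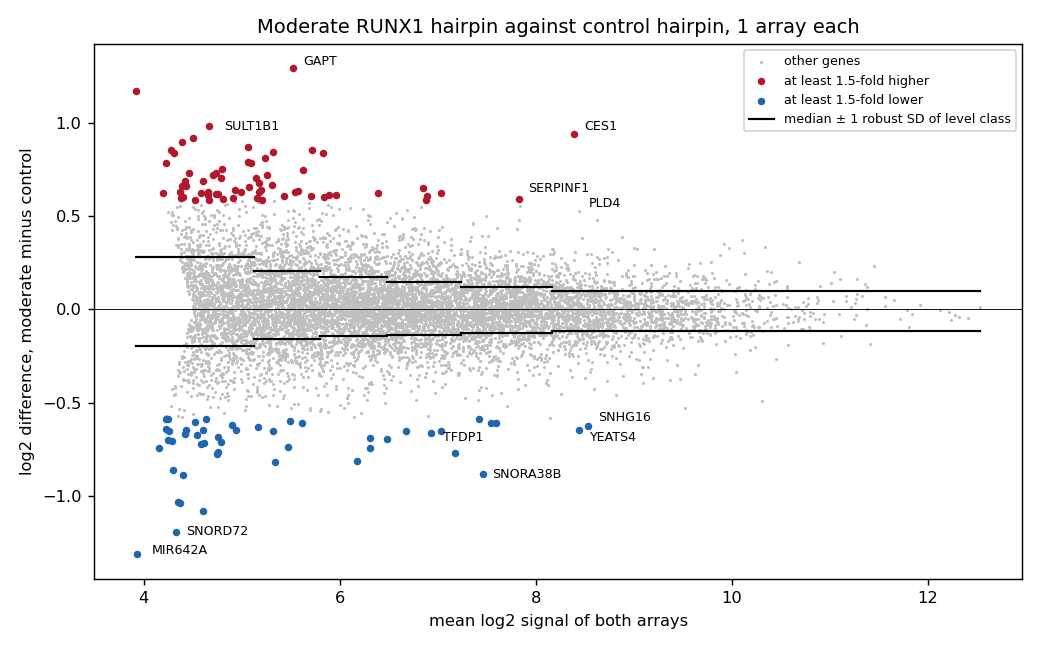
Each point is 1 of 9546 genes, with the mean log2 signal of both arrays on the x axis and the log2 difference, moderate minus control, on the y axis. Coloured points are at least 1.5-fold higher (63) or lower (48), and black lines mark the median plus and minus 1 robust SD in 6 classes of level. The scatter narrows from 0.24 in the dimmest class to 0.106 in the brightest, where CES1, YEATS4 and SNHG16 are the only coloured points.

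The genes furthest above control had varied roles. GAPT, an adaptor in the membrane of blood cells that binds GRB2, read 4.88 in control and 6.17 in the array labelled moderate, against 5.38 on profound 1 and 4.29 on profound 2. Its difference of 1.29, or 2.45-fold, was the largest of any gene on the higher side and 7.13 times the robust SD of its level class. CES1, a carboxylesterase that marks monocytes and macrophages, read 7.92, 8.87, 8.96 and 8.17 in control, moderate, profound 1 and profound 2. At 0.94, or 1.92-fold, CES1 had 8.93 times the robust SD of its class, and the arrays labelled moderate and profound 1 were both well above the other two. SULT1B1, a sulfotransferase, read 4.17, 5.16, 4.12 and 4.57, a difference of 0.98 in which the array labelled moderate was above all others. The actin-binding coronin CORO2A read 4.05, 4.96, 4.03 and 4.20, again with that array alone at the top. SULT1B1 and CORO2A read below 4.5 in control, so they were included through the array labelled moderate alone and could only be higher than control.

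In several other higher genes profound 1 was above control as well. ICAM3, a leukocyte adhesion molecule, read 4.67 in control, 5.47 in the array labelled moderate, 6.0 on profound 1 and 5.11 on profound 2. GIPR, the receptor for gastric inhibitory polypeptide, read 4.83, 5.64, 5.93 and 4.88. TUBG2, a gamma-tubulin, read 5.29, 6.14, 6.51 and 5.66. In these 3 genes control was the lowest array and profound 1 the highest. SERPINF1, which encodes the secreted serpin PEDF, was at 7.53, 8.12, 8.82 and 8.09, a difference of 0.59. PLD4, an exonuclease of the endolysosome, was at 8.18, 8.71, 9.04 and 8.41, a difference of 0.53 that misses 1.5-fold but is 5.0 times the robust SD of its class. ARHGAP25, a GTPase-activating protein of leukocytes, was at 6.52, 7.17, 7.05 and 6.07.

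Antigen receptor genes and related names appeared on both sides of control, 4 past 1.5-fold each way, a grouping made after their values were seen. Those above were TRAJ59, IGLL1, IGLC2 and IGKV1D-16, and those below were TRBV11-1, TRBV7-1, IGLJ4 and IGHV1OR15-9, at -0.61, -0.62, -0.77 and -1.03. Of 21 V segments included, 1 was higher and 1 lower, and of 10 J segments likewise 1 and 1, against 0.66% and 0.503% of all genes. Of 3 constant regions 1 was higher. V and J segments were dim, with median levels of 5.2 and 5.11. IGLJ4 and IGHV1OR15-9 read below 4.5 in the array labelled moderate, so they were included through control alone and could only be lower. The members of the whole grouping were not counted. IGLL1, the surrogate light chain of early B cells, read 3.94, 4.84, 4.23 and 3.98 in control, moderate, profound 1 and profound 2. IGLC2, a lambda light chain constant region, read 5.41, 6.25, 5.20 and 4.74. CD79A, the B cell receptor's signalling chain, read 4.20, 4.64, 4.80 and 4.12, a difference of 0.43 that misses 1.5-fold. The other B cell markers stayed dim, with MS4A1 at 2.05 in control and 1.97 in the array labelled moderate and PAX5 at 3.24 and 3.16. Some dim markers differed more, in either direction, with VPREB1 at 3.89 and 3.18 and EBF1 at 1.89 and 2.44. Of the 12 on the array only IGLL1 and CD79A were included. Both read below 4.5 in control, so they were included through the array labelled moderate alone and could only be higher. The part of B cells in these values was not tested. TRAJ59, a T cell receptor joining segment, read 3.34, 4.51, 3.81 and 4.15, and its signal passed 4.5 in the array labelled moderate alone.

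Further genes among the 63 were chosen after their values were seen. CXCR2, a chemokine receptor of neutrophils, was at 4.10 in control, 4.83 in the array labelled moderate, 4.58 on profound 1 and 4.31 on profound 2. F13A1, the coagulation factor XIII subunit made by monocytes and megakaryocytes, was at 6.72, 7.35, 7.53 and 7.30. CD72, a surface receptor of B and some myeloid cells, was at 4.61, 5.25, 3.84 and 4.10. F13A1 was lowest in control, while CD72 was below control in both profound arrays. SLC15A4, a lysosomal histidine and peptide transporter, was at 6.58, 7.19, 7.13 and 6.83. FBP1, an enzyme of gluconeogenesis, was at 5.26, 5.89, 5.85 and 6.43, at least 1.5-fold lower in control than in every RUNX1 hairpin array.

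On the lower side small RNA genes and a histone gene were furthest from control. Besides 2 miRNA genes and the small nucleolar RNA SNORD72, the genes at least 2-fold lower were H2AC1 and the immunoglobulin pseudogene IGHV1OR15-9. All 5 read below 4.5 in the array labelled moderate. They were thus included through control alone and could only be lower. With 4.5 required in both arrays, 0 genes were 2-fold lower. H2AC1, a histone H2A gene, read 4.89 in control, 3.85 in the array labelled moderate and 4.5 in each profound array. IGHV1OR15-9 read 4.87, 3.84, 4.49 and 4.64. Among protein-coding genes, the zinc finger gene ZNF140 was at 5.14, 4.38, 5.10 and 4.82, and ATP10A, a lipid flippase, at 6.69, 5.94, 6.15 and 6.64. YEATS4, a reader of acetylated histones, was at 8.76, 8.12, 8.42 and 8.69, a difference of -0.65 that is 6.13 robust SDs of its class in size. SNHG16, a noncoding host gene of small nucleolar RNAs, was at 8.85, 8.22, 8.73 and 8.99. In ZNF140, ATP10A, YEATS4 and SNHG16 the array labelled moderate was the lowest of the 4. ZNF140 too was included through control alone and could only be lower than control there.

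Some lower genes encode cell cycle or trafficking proteins and were chosen after their values were seen. TFDP1, the DP1 partner of E2F factors, was at 7.27 in control, 6.60 in the array labelled moderate, 5.94 on profound 1 and 7.28 on profound 2. GMNN, or geminin, which restrains replication licensing, was at 7.71, 7.12, 6.84 and 7.53. For both genes profound 1 was lower still and profound 2 was near control. SNX1, a sorting nexin of the retromer pathway, was at 6.83, 6.13, 6.55 and 6.69. ATP6V1E1, a subunit of the proton pump that acidifies lysosomes, was at 7.36, 6.71, 7.56 and 7.51, and so at least 1.5-fold below each of the other arrays.

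**Figure D2:**
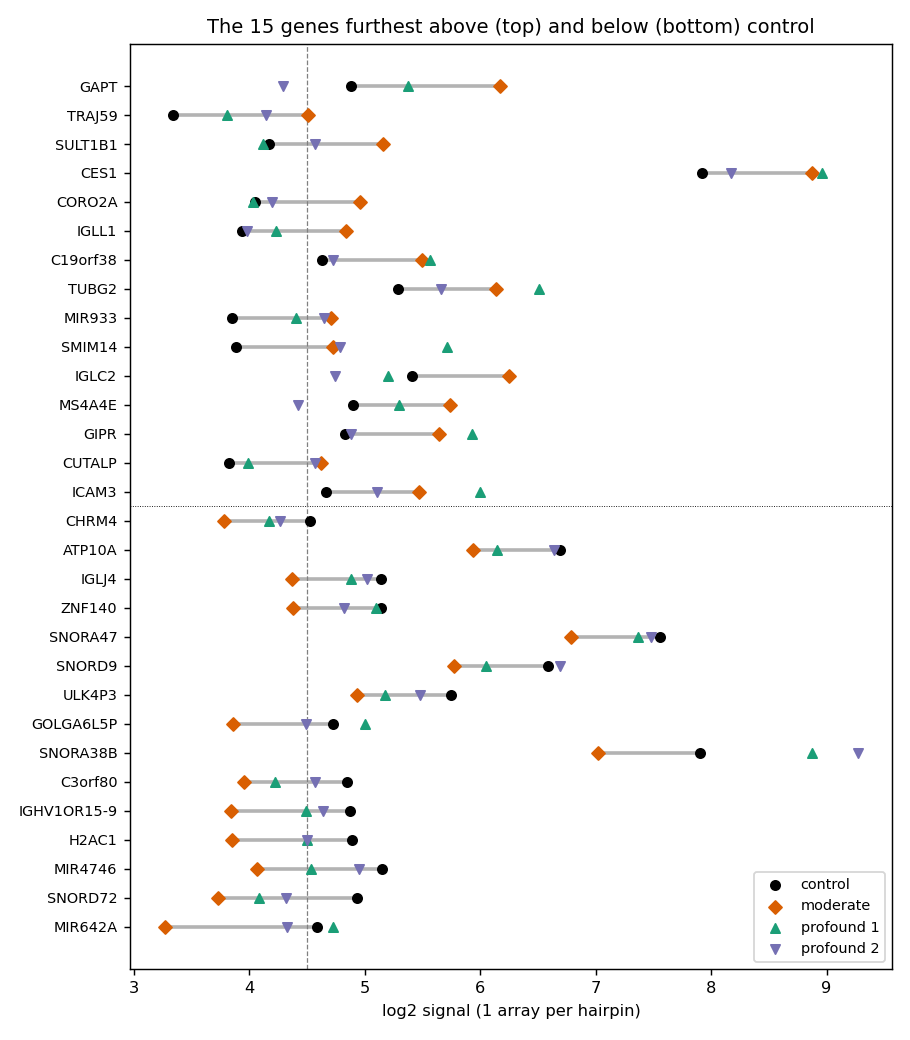
The 15 genes furthest above control (top) and the 15 furthest below (bottom), with the log2 signal of each of the 4 arrays on the x axis as 1 point per array. A grey bar joins the control and moderate arrays, and the dashed line marks the inclusion level of 4.5. GAPT spans 4.88 to 6.17, and the profound arrays of SNORA38B, at 8.87 and 9.27, and of IGLC2, at 5.20 and 4.74, lie on the far side of control from the array labelled moderate.

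Of 148 miRNA genes, 6 were at least 1.5-fold higher and 4 lower, against 0.66% and 0.503% of all genes, with a median of 0.03. Among the lower ones MIR642A, MIR4746 and MIR545 were included through control alone and could only be lower. Among the higher ones MIR933 and MIR326 were included through the array labelled moderate alone and could only be higher. miRNAs pair with messenger RNAs mainly through the seed, bases 2 to 8 of the mature strand, and repress them. The mature strands of the miRNA genes furthest from control or furthest from every other array are given next, from RefSeq (GRCh38.p14), with the seed in capitals, since the seed is the part by which they would act.
hsa-miR-642a-5p (chr19:45674943-45674964, plus strand): gUCCCUCUccaaaugugucuug
hsa-miR-642a-3p (chr19:45674978-45674999, plus strand): aGACACAUuuggagagggaacc
hsa-miR-4746-5p (chr19:4445987-4446009, plus strand): cCGGUCCCaggagaaccugcaga
hsa-miR-4746-3p (chr19:4446021-4446041, plus strand): aGCGGUGCuccugcgggccga
hsa-miR-181b-5p (chr1:198858925-198858947, minus strand): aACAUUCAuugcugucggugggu
hsa-miR-324-5p (chr17:7223343-7223364, minus strand): cGCAUCCCcuagggcauuggug
hsa-miR-933 (chr2:175167642-175167663, minus strand): uGUGCGCAgggagaccucuccc

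MIR642A, the gene of both miR-642a strands, read 4.59 in control, 3.27 in the array labelled moderate, 4.73 on profound 1 and 4.33 on profound 2. This difference of -1.32, or 2.49-fold, was the largest on the lower side, and the array labelled moderate stood 1.06 below the next array. MIR4746 read 5.15, 4.07, 4.54 and 4.95. MIR181B1, one of the genes of miR-181b, a miRNA of blood cell development, read 6.08, 6.70, 5.82 and 5.52. MIR324 read 5.23, 5.86, 5.07 and 5.23, and MIR933 read 3.85, 4.71, 4.41 and 4.65. For MIR181B1 and MIR324 the array labelled moderate was above all others, while for MIR933 control was below all others. The 10 miRNA genes past 1.5-fold give 15 mature strands with 15 different seeds, so no seed was shared among them. An array of total RNA does not separate the mature strand from its precursor, and a column kit of the kind used recovers short RNAs poorly.

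Small nucleolar RNAs lay lower as a class. These RNAs guide chemical modification of ribosomal RNA, the C/D type (SNORD) placing methyl groups and the H/ACA type (SNORA) turning uridine to pseudouridine, and most are cut from the introns of host genes. Of 106 included, 85 were below 0 (80.2%) and the median was -0.18, while 4146 of 8706 protein-coding genes were below 0 (47.6%) with a median of 0.01. Their class was looked at after its values were seen, and 7 were at least 1.5-fold lower and 0 higher, against 0.503% and 0.66% of all genes. Of the 7, SNORD72 and SNORD1B were included through control alone and could only be lower. The 66 C/D RNAs had a median of -0.18 and the 40 H/ACA RNAs one of -0.23. The shift was not limited to dim genes, since 32 of the 36 brightest were below 0, with a median of -0.22, and 24 of the 35 dimmest, with a median of -0.16.

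SNORD15B, a bright C/D RNA, read 10.56 in control, 10.07 in the array labelled moderate, 10.43 on profound 1 and 10.56 on profound 2. SNORA71A read 9.05, 8.59, 8.97 and 8.92, and SNORA47 read 7.56, 6.79, 7.37 and 7.48. In all 3 the array labelled moderate was lowest by a margin wider than the range of the other arrays. SNORD72 read 4.93, 3.73, 4.09 and 4.32, and SNORD9 read 6.59, 5.77, 6.05 and 6.69. SNORA78 was the small nucleolar RNA furthest above control, at 5.21 and 5.74. The class median against the same control array was -0.13 in profound 1, with 76 of 106 below 0, and -0.00 in profound 2, with 55 below 0. Of 13 Cajal body RNAs (SCARNA), which guide modification of spliceosomal RNAs, 9 were below 0 with a median of -0.19. The SNHG host genes, 10 of them, had a median of -0.07. Both cultures passed through a column kit that recovers short RNAs poorly, and whether recovery differed between them was not tested.

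**Figure D3:**
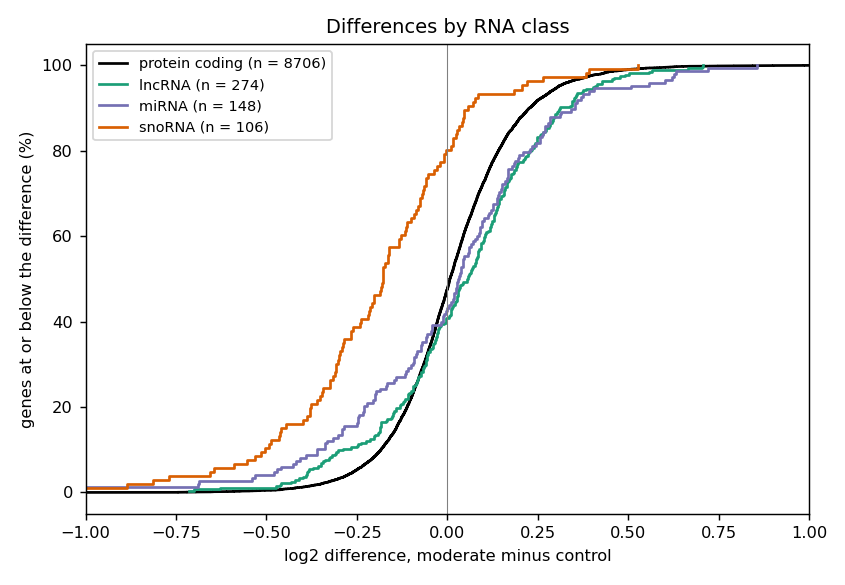
The share of genes (y axis, percent) at or below each log2 difference, moderate minus control (x axis, drawn from -1 to 1), for 8706 protein-coding genes, 274 lncRNAs, 148 miRNAs and 106 small nucleolar RNAs. The curve of the small nucleolar RNAs lies to the left of the others, with a median of -0.18, and crosses 0 at 80.2%, while the protein-coding curve crosses it at 47.6%.

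Cell cycle genes lay a little below control almost throughout. Of 54 genes of G1/S entry and DNA replication, 49 were below 0 and 5 above, with a median of -0.14, whereas 52.1% of all genes were above 0. Of 51 genes of G2/M and mitosis, 48 were below 0 and 3 above, with a median of -0.12. Single differences were small. In the first list 0 genes were 1.5-fold lower, and in the second 1 was, against 0.503% of all genes.

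Of the G1/S genes the largest difference was that of CCNE2, a cyclin E that starts S phase with CDK2, at 7.97 in control, 7.45 in the array labelled moderate, 6.41 on profound 1 and 7.94 on profound 2. CDC6, which loads the replicative helicase, was at 8.03, 7.60, 6.74 and 7.91. CLSPN, the checkpoint adaptor claspin, was at 8.31, 7.91, 7.09 and 8.10. In these 3 genes the array labelled moderate lay between control and profound 1, and profound 2 lay closer to control. CCNE1 differed by -0.35 and RFC3, a clamp loader subunit, by -0.34. POLD3 and POLE2, subunits of replicative polymerases, were the furthest above control, at 0.09 and 0.07. Among mitotic genes CENPU, a kinetochore protein, was at 8.01, 7.63, 7.23 and 7.66, KIF23, a kinesin of cytokinesis, at 8.72, 8.40, 8.08 and 8.63, and NCAPG, a condensin subunit, at 9.25, 8.94, 8.58 and 9.20. RACGAP1, which acts with KIF23, was the mitotic gene past 1.5-fold, at 4.55, 3.91, 3.01 and 3.61, a difference of -0.64 on a dim probe set. RACGAP1 was included through control alone, so in the array labelled moderate it could only be lower. PLK1, a mitotic kinase, stood at 0.05.

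Against the same control array the G1/S median was -0.71 in profound 1 and -0.14 in profound 2, and the G2/M median was -0.73 and -0.10. These medians share the control array, so a shift in that array alone would enter all of them. Of 23 homologous recombination and Fanconi genes, 17 were below 0 with a median of -0.08, and the checkpoint kinase CHEK1 had the largest difference, at 7.24 in control, 6.90 in the array labelled moderate, 6.32 on profound 1 and 6.70 on profound 2. Of 15 replication-dependent histone genes 11 were below 0 with a median of -0.05, and H2AC1 and H2BC17 were 1.5-fold lower, where 0.503% of all genes were. Fewer cycling cells cannot be told apart from less of these transcripts per cell in bulk RNA. Housekeeping genes had a median of -0.11 over 9 genes, of the same sign as the cell cycle lists.

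G1/S genes are known targets of E2F factors and many G2/M genes carry a cell cycle homology region (CHR) in their promoters. Promoters were taken from RefSeq (GRCh38.p14) as 250 bases before to 50 bases after each gene's start, and 7568 of the 9546 genes had one. E2F letters were TTTCCCGC, TTTCGCGC, TTTGCCGC or TTTGGCGC on either strand, and CHR letters were TTTGAA or TTCGAA on either strand. E2F letters stood in 21 of 44 G1/S promoters (47.7%), against 6.0% of promoters of all genes included and 3.3% of all 27305 promoters. CHR letters stood in 30 of 43 G2/M promoters (69.8%), against 11.3% and 16.6%. To show where these letters sit, 100-base stretches upstream of the start are printed for 3 genes of each list with a match before the start. They are examples with larger differences, and genes further from control may hold a match too. Capitals mark the E2F letters in RFC3, POLA1 and E2F1 and the CHR letters in KIF23, NCAPG and KIF15.
RFC3 promoter (chr13:33818048-33818147, plus strand): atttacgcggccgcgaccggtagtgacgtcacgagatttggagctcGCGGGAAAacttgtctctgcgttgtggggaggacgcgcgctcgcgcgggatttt
POLA1 promoter (chrX:24693735-24693834, plus strand): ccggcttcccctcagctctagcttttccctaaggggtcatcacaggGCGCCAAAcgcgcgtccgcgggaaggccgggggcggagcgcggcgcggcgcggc
E2F1 promoter (chr20:33686386-33686485, minus strand): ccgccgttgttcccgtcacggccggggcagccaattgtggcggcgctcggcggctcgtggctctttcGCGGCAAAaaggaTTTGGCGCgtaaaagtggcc
KIF23 promoter (chr15:69414247-69414346, plus strand): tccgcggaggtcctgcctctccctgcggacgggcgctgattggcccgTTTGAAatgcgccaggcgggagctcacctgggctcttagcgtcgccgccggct
NCAPG promoter (chr4:17810879-17810978, plus strand): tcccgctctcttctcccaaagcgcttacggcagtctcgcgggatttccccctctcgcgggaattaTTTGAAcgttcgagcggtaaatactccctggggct
KIF15 promoter (chr3:44761694-44761793, plus strand): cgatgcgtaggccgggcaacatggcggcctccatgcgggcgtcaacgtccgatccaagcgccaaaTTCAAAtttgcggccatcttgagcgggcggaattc

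In E2F1, which encodes an E2F factor itself and holds 2 matches, the signal was 7.18 in control, 6.92 in the array labelled moderate, 5.83 on profound 1 and 7.11 on profound 2. POLA1, the catalytic subunit of the primase polymerase, differed by -0.28, and KIF15, a mitotic kinesin, by -0.27. A match is a description of the letters and not evidence of binding.

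Genes of monocytes and of antigen presentation lay above control. Of 15 monocyte and macrophage genes 12 were above 0 with a median of 0.29. Of 8 genes in an MHC class II list 7 were above 0 with a median of 0.26. The median of all genes was 0.006. CES1 was the 1 monocyte gene that was 1.5-fold higher, and LILRB1 the 1 that was lower, where 0.66% and 0.503% of all genes were. LILRB1 was included through control alone and could only be lower. No gene of the class II list passed 1.5-fold. Its class II chains were HLA-DRA and HLA-DQA1, at 0.4 and 0.18, and its other genes encode accessory or regulatory proteins. Both lists hold CTSS.

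FCER1G, the signalling chain of Fc receptors, read 7.56 in control, 8.12 in the array labelled moderate, 7.50 on profound 1 and 7.49 on profound 2. S100A8, a calcium-binding protein of myeloid cells, read 5.73, 6.27, 6.22 and 5.88. AIF1, an actin-binding protein of macrophages, read 9.81, 10.14, 9.92 and 9.78. FCER1G and AIF1 stood out in the array labelled moderate alone, with the other 3 arrays close together. LYZ, lysozyme, was at 11.34, 11.57, 11.46 and 11.49, and CSF1R, the receptor for macrophage colony-stimulating factor, at 7.50, 7.79, 7.39 and 7.65. Against these, LILRB1, an inhibitory receptor that binds MHC class I, was at 4.54, 3.95, 4.24 and 4.74, and the macrophage glycoprotein CD68 was at 9.28, 9.14, 9.98 and 9.91. CD68 was thus below control in the array labelled moderate and above it in both profound arrays.

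Of the class II genes HLA-DRA, the alpha chain of HLA-DR, was at 6.44 in control, 6.85 in the array labelled moderate, 7.19 on profound 1 and 7.31 on profound 2. The invariant chain CD74 was at 6.24, 6.55, 6.75 and 6.43, and CIITA, the class II transactivator, at 4.64, 4.95, 5.35 and 4.94. Control was the lowest array for all 3. RFXAP, a subunit of the factor that binds class II promoters, was the exception at -0.23. The class I genes had a median of 0.09, with 10 of 14 above 0. The class II median was 0.36 on profound 1 and 0.16 on profound 2, and the monocyte median 0.13 and 0.19.

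More granule protein and cytokine receptor genes lay above control than below, by medians smaller than the robust SD of all genes (0.152). Of 13 granule genes 10 were above 0 with a median of 0.14. RNASE6, an antimicrobial ribonuclease, read 7.60 in control, 8.07 in the array labelled moderate, 7.17 on profound 1 and 6.86 on profound 2, and CTSG, cathepsin G, read 10.18, 10.51, 9.62 and 10.04. For RNASE6 and CTSG the array labelled moderate was above control and both profound arrays were below it. The cystatin CST7 read 7.0, 6.59, 6.56 and 6.26, below control in all 3 RUNX1 hairpin arrays. Of 23 cytokine receptor genes 18 were above 0 with a median of 0.11. CSF3R, the receptor for granulocyte colony-stimulating factor, read 6.04, 6.55, 6.60 and 6.30, and IL3RA, the interleukin 3 receptor, read 7.13, 7.59, 7.47 and 7.14. KIT, the stem cell factor receptor of progenitors and mast cells, went the other way, at 5.07, 4.59, 4.30 and 4.42. Among 13 NADPH oxidase and phagocytosis genes 12 were above 0 with a median of 0.10. None of the genes of the granule, receptor and phagocytosis lists passed 1.5-fold.

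The myeloid transcription factors as a list lay near 0, with a median of 0.03 and 14 of 25 above 0. The repressor BCL6 differed most, at 4.30 in control, 4.86 in the array labelled moderate, 5.52 on profound 1 and 4.30 on profound 2. SOX4, a factor of progenitors, was at 8.69, 9.08, 8.38 and 8.38, above control in the array labelled moderate and below it in both others. For 20 genes linked to RUNX1 in myeloid cells, among them CSF3R, IL3RA, KIT and CTSG, the median was 0.12 and 15 were above 0.

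**Figure D4:**
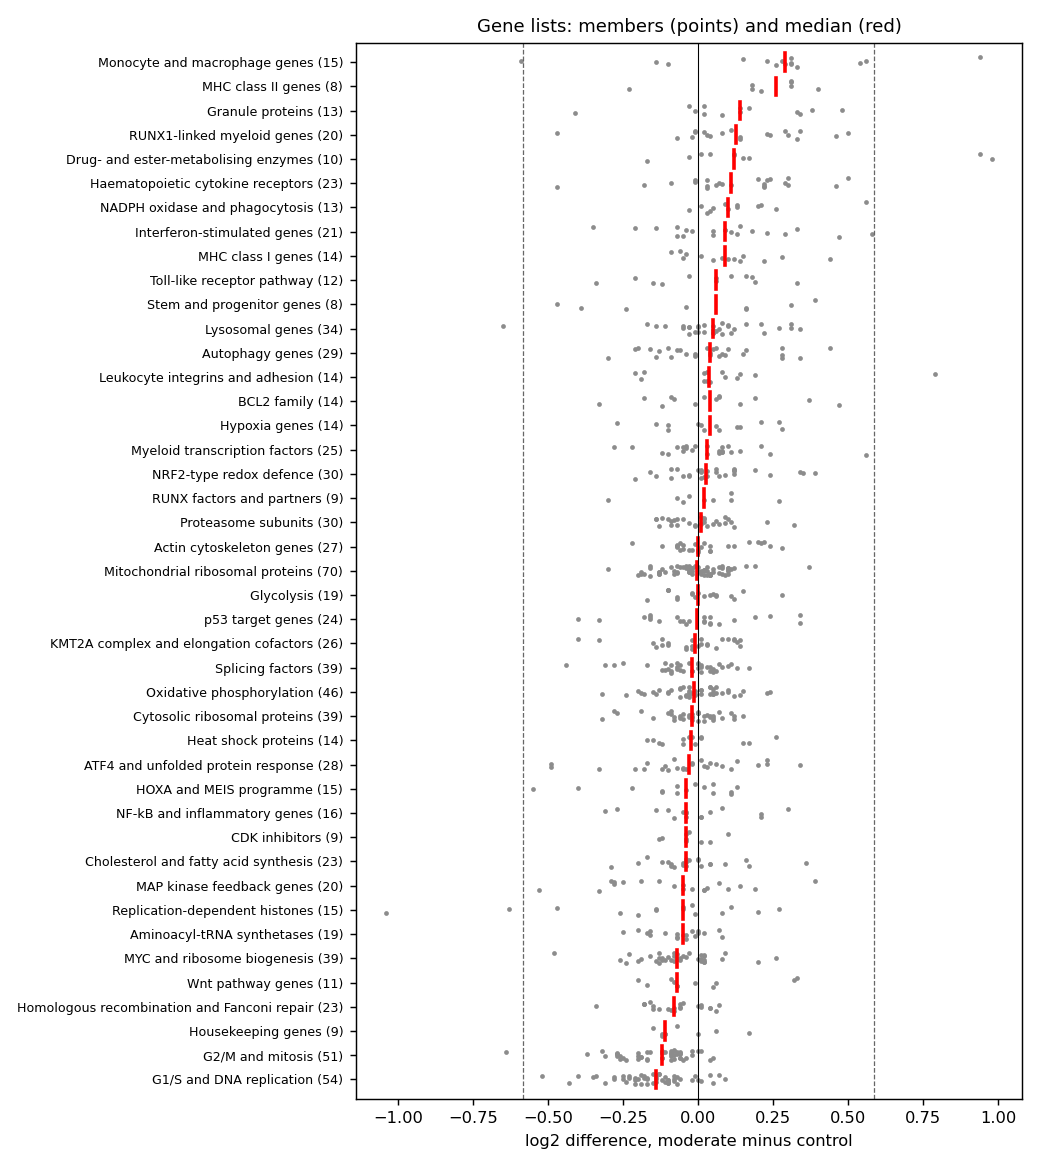
Each point is a gene of a list (number of genes in brackets), placed at its log2 difference, moderate minus control, and red bars mark list medians. Dashed lines mark 1.5-fold. Medians run from 0.29 for monocyte and macrophage genes to -0.14 for G1/S genes, and few points lie beyond the dashed lines.

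RUNX letters were sought in the promoters of the genes past 1.5-fold. TGTGGT or TGCGGT, on either strand, stood in 11 of 39 promoters of higher genes (28.2%) and in 2 of 21 promoters of lower genes (9.5%), against 19.0% of promoters of all genes included and 19.4% of all 27305. The rule for inclusion forced the direction of 27 of the 63 higher and 26 of the 48 lower genes. The shares were not taken without those genes. Examples of genes with large differences that hold these letters before their start are shown, with the letters or their complement in capitals. Genes further from control may hold them too. IGLL1, KCNK17 and CXCR2 read below 4.5 in control, so they were included through the array labelled moderate alone and could only be higher.
IGLL1 promoter (chr22:23580366-23580465, minus strand): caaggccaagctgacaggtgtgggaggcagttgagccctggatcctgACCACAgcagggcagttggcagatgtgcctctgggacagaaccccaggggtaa
KCNK17 promoter (chr6:39314562-39314661, minus strand): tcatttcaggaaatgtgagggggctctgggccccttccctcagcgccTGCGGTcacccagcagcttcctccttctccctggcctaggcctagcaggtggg
CXCR2 promoter (chr2:218125778-218125877, plus strand): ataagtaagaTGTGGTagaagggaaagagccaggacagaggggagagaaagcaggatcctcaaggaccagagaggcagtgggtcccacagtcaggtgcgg

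KCNK17, a potassium channel, read 4.42 in control, 5.18 in the array labelled moderate, 4.40 on profound 1 and 4.11 on profound 2. For it, as for IGLL1, the array labelled moderate was at least 1.5-fold above every other array. CXCR2 was above control in all 3 RUNX1 hairpin arrays, by 0.73 in the array labelled moderate. The window covers the promoter alone, and enhancers, where RUNX1 often binds, were not searched.

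How far the array labelled moderate stood from all the others was counted gene by gene. It lay at least 1.5-fold above all other arrays at 12 genes (0.126%) and below them at 10 (0.105%). The 12 were led by IGLC2, GAPT and CORO2A, with gaps to the next array of 0.84, 0.79 and 0.76, and the 10 by MIR642A and SNORA38B, with gaps of 1.06 and 0.89. The control array in turn lay above all the others at 4 genes (0.0419%) and below them at 7 (0.0733%). SMIM14, a small membrane protein gene and the first of these 7, read 3.89 in control, 4.73 in the array labelled moderate, 5.71 on profound 1 and 4.79 on profound 2. At those 11 genes the control array is the one apart, and its own value enters all 3 hairpin comparisons. The rule for inclusion used the control and moderate arrays alone. Some genes counted here, such as CORO2A and MIR642A, passed it on 1 of those arrays only, which forced their direction between both. With a mean of 4.5 or more, the array labelled moderate lay above all others at 9 genes and below at 6. Control then lay above all others at 0 and below at 5.

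**Figure D5:**
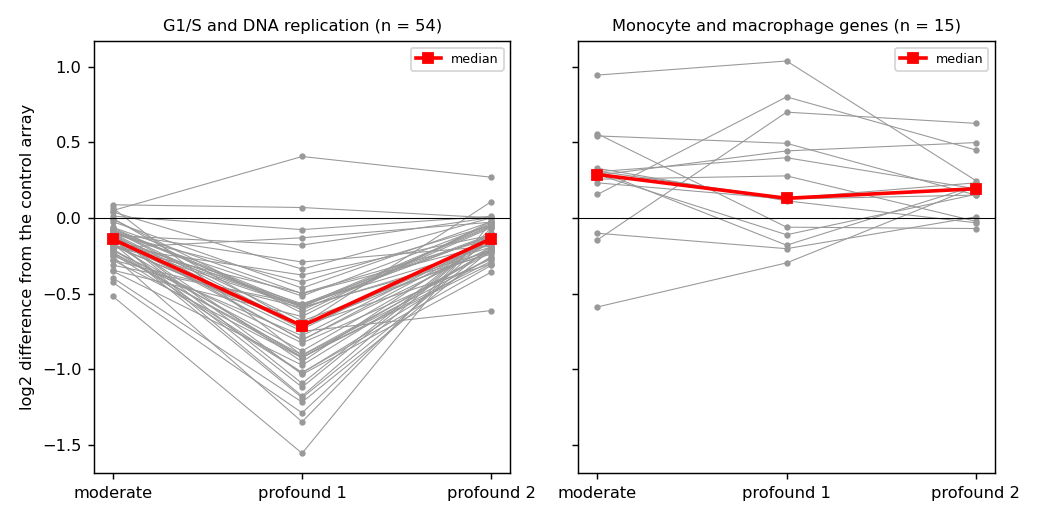
Log2 differences from the same control array (y axis) of the 54 G1/S genes (left) and the 15 monocyte and macrophage genes (right) in the arrays labelled moderate, profound 1 and profound 2, 1 grey line per gene and the median in red. The G1/S median is -0.14, -0.71 and -0.14 and the monocyte median is 0.29, 0.13 and 0.19. All differences share the control array.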

How the data were processed

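Total RNA was hybridised as biotin-labelled cDNA, 1 Affymetrix array per hairpin. The deposited values are log2 signals of 53617 probe sets, made by the authors by RMA in Affymetrix software (Expression Console 1.3.1 and Transcriptome Analysis Console 1.0), per the submitters' processing notes. RMA normalises arrays to 1 distribution, so a shift of most genes in 1 direction would not show, and differences of dim probe sets are understated. The genome build of the array annotation is not given in the sources used here. A single gene symbol is listed for 23871 probe sets, more than 1 for 1842 and none for 27904. Symbols were updated to RefSeq (GRCh38.p14) through Entrez ID (88) or synonym (565). The probe set with the highest mean over both arrays stood for each gene, which mattered for 357 genes. The table's 4 value columns were all used (0 unused).

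Differences, medians and counts past a fold were computed in Python 3.11.15 with pandas 2.3.3, with cyclic loess from limma 3.58.1 (R 4.3.3) as an alternative. The counting was tested on simulated data. Genes named were RUNX1, RUNX2, RUNX3 and CBFB, the 15 with the largest differences each way, the 10 each way with the largest relative to the spread of their level class, the 10 each way with the largest at a mean of 8 or more, up to 3 each way per list, and 2 each way on either side of the 1.5-fold limit. Exceptions are marked. The genes, lists and RNA classes were chosen with earlier results of these data known. Alternatives were other level filters, loess, centring, averaged probe sets and protein-coding genes.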

Additional observations from a re-analysis of the deposited data

Results flagged for a closer look

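SNORA38B, an H/ACA small nucleolar RNA, lay below control in the array labelled moderate and above it in both others. It read 7.90 in control, 7.02 in the array labelled moderate, 8.87 on profound 1 and 9.27 on profound 2. The differences from the shared control array were -0.89, 0.96 and 1.37. The moderate and profound hairpins thus lay on opposite sides of control, and with 1 array each the difference between them was not tested.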

How the results depend on the processing

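Counts depended on the level a gene had to reach. At 1.5-fold, 63 genes higher and 48 lower became 36 and 22 with a log2 signal of 4.5 in both arrays, 14 and 14 at a level of 6, and 245 and 205 with no filter. With protein-coding genes alone, 23 were lower. At 2-fold, 2 higher and 5 lower became 1 and 0 with 4.5 in both arrays, 1 and 1 with a mean of 4.5, 1 and 0 at a level of 6, 18 and 13 with no filter, and 1 and 1 among protein-coding genes. With a mean of 4.5 or more, the array labelled moderate lay below all others at 6 genes in place of 10, and control above all others at 0 in place of 4. Cyclic loess gave 59 higher and 50 lower at 1.5-fold, and no named gene moved by more than 0.03. Of 46 list medians 4 moved by more than 0.106 under some alternative and 6 changed sign. The interferon median went from 0.09 to -0.02, Toll-like receptor from 0.06 to -0.03, NF-kB from -0.04 to 0.01 and p53 targets from -0.01 to 0.02 at a level of 6. With no filter C-type lectins went from 0.10 to -0.11, Wnt genes from -0.07 to 0.02 and drug-metabolising enzymes from 0.12 to 0.00. The Siglec median of 0.14 came to 0.01 under loess, a mean of 4.5 and no filter. The G1/S, G2/M, monocyte and MHC class II medians kept their sign. The small nucleolar RNA median ran from -0.20 to -0.13, under alternatives chosen after seeing the data. Averaging the probe sets of a gene moved 7 of 313 named genes by more than that spread, CD44, CD99, HLA-E, IGHV1OR15-9, IL1RAP, RPS27 and SRXN1. The causes of these moves, beyond the number of genes kept, were not tested.

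No paired analysis was possible because each group has 1 array, which also leaves no replicate to leave out. The number of arrays limits the precision, and the spread of differences was wider among dim genes.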

Other observations

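ASNS, PHGDH and PSAT1 had the largest differences below 0 in the ATF4 and unfolded protein response list, and none of them reached 1.5-fold. ASNS, asparagine synthetase, read 6.52 in control, 6.03 in the array labelled moderate, 5.77 on profound 1 and 6.05 on profound 2. PHGDH, the first enzyme of serine synthesis, read 7.02, 6.54, 5.77 and 6.63, and PSAT1, the next enzyme, read 10.21, 9.88, 9.36 and 10.29. The 28 genes of that list as a whole had a median of -0.03, with 12 above 0, and SLC7A11, the cystine transporter, was higher by 0.34. Of 19 aminoacyl-tRNA synthetase genes 16 were below 0, with a median of -0.05. Of 39 MYC and ribosome biogenesis genes 27 were below 0, with a median of -0.07, and RRP1B, a nucleolar protein, was furthest, at 7.52 in control and 7.04 in the array labelled moderate.

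Apoptosis regulators did not share a direction. The BCL2 family had a median of 0.04, with 8 of 14 above 0. Its BH3-only members BIK and BMF were higher by 0.47 and 0.37, and BBC3 differed by -0.33. The p53 target list had a median of -0.01, with 12 of 24 above 0, and of 0.02 at a level of 6. Of 20 MAP kinase feedback genes, which report signalling below receptors such as FLT3, 12 were below 0 with a median of -0.05. PHLDA1 differed by -0.53, ETV4 by -0.33 and SPRY2 by -0.29, while DUSP10 was higher by 0.39. Of 15 HOXA and MEIS genes 9 were below 0 with a median of -0.04, and MEIS2 read 5.09, 4.54, 4.55 and 4.65 and MEF2C 6.53, 6.13, 6.31 and 6.29. The chromatin cofactors WDR5 and DPY30, which serve KMT2A complexes, differed by -0.40 and -0.33, and the list they belong to had a median of -0.01.

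Interferon-stimulated genes had a median of 0.09, with 13 of 21 above 0, which turned to -0.02 at a level of 6. HERC6 was higher by 0.47 and USP18 differed by -0.35. No guanylate-binding protein gene of the 7 on the array reached 4.5 in either array. The lysosomal list had a median of 0.05, with 24 of 34 above 0, and ATP6V1E1 as its 1 gene past 1.5-fold. SIGLEC7, an inhibitory receptor for sialic acid, was higher by 0.44 in the array labelled moderate. Mitochondrial ribosomal proteins (median -0.00 over 70 genes) and oxidative phosphorylation genes (median -0.02 over 46) lay at 0. RN7SK, the noncoding RNA that holds the elongation kinase P-TEFb inactive, read 9.92 in control, 10.30 in the array labelled moderate, 10.56 on profound 1 and 10.31 on profound 2. The 3 SNAR noncoding RNAs included, a primate family of small RNAs, had a median of -0.53, against -1.08 in profound 1 and -0.06 in profound 2.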
